A study of Mus musculus with 110 samples.

Results

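The comparison described here is the response of the liver to 24 h at 4 °C in mice fed the control diet. It sets the 7 liver libraries of Ctrl_CE against the 7 of Ctrl_RT, 14 of the 110 libraries of the series, and covers 22143 of the 56884 genes in the table, those whose counts summed to 10 or more across the 28 liver libraries. All mice were wild-type male C57BL/6N animals from Taconic, 16 weeks old at the end of the experiment, and every group of both diets lacked dietary cysteine. Mice of Ctrl_RT and Ctrl_CE ate the diet with 0.86% methionine for 7 days at 22 °C, and those of Ctrl_CE were then moved to 4 °C for 24 h. The day in the cold was an 8th day. Time since the diet began thus differed along with temperature, and the effects of both cannot be told apart. Livers were collected between 3 and 5 h after lights on. The other liver groups, MetR_RT and MetR_CE, ate the diet with 0.12% methionine and entered the same fit. Each library came from a different mouse, so the spread between libraries is that between mice. Messenger RNA was selected by its poly(A) tail and sequenced, and levels are given as CPM, the counts of a gene scaled to a common library size. A differentially expressed gene (DEG) had an adjusted p under 0.05 and a change of at least 1.5-fold. A value after a gene's name in the form of a number ± another is the log2 fold change, Ctrl_CE over Ctrl_RT, with its SE.

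At 4 °C a mouse keeps its body temperature by burning glucose and lipids in brown fat and muscle, and the liver supplies part of that fuel. It takes up fatty acids released by white fat, oxidizes or re-esterifies them, makes glucose, and can build new fatty acids and cholesterol from acetyl-CoA. Cholesterol and fatty acid enzymes are controlled by SREBP factors, which are released from the endoplasmic reticulum (ER) when sterols run low or insulin is high, and fatty acid oxidation is controlled by PPARα during fasting. The liver also makes most plasma proteins, which fold in its ER, and many of its genes follow the circadian clock and the feeding rhythm. Besides hepatocytes, it holds sinusoidal endothelial cells, stellate cells that store vitamin A, and Kupffer cells, the resident macrophages.

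Library totals ran from 12601244 to 16512194 counts in Ctrl_RT and from 11943605 to 22169078 in Ctrl_CE, and 19734 to 20706 and 19217 to 21153 genes had at least 1 count. The tissue label held: 45286 and 46363 CPM were the medians of Alb, and the summed level of 7 hepatocyte markers was 75804 to 108905 CPM in Ctrl_RT and 74679 to 100551 CPM in Ctrl_CE. Blood, muscle, pancreas and fat markers summed to 81.7 to 147 and 62.8 to 125 CPM, and of 13 listed genes of those tissues 7 were tested and 0 were DEGs with edgeR, while 1 fell on leaving out any of Ctrl_RT replicates 5 and 6 and Ctrl_CE replicates 3, 5 and 6. Ctrl_CE replicate 4 stood apart from its group. Its median correlation with the other cold libraries was 0.975, the lowest of the 7, whose median was 0.988, and it was high in acute phase genes and low in male-biased genes. Results that rest on it are given with and without it.

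Transcript length moved with cold. Over genes that averaged 1 CPM or more, the median log2 fold change rose with each step in the length of the longest annotated transcript, from -0.28 over 676 genes of up to 1 kb to 0.20 over 1730 genes of more than 6 kb. In each library, the median deviation in log2 CPM of the long class minus that of the short class was between -0.45 and -0.13 in Ctrl_RT and between 0.04 and 0.37 in Ctrl_CE, with no overlap (exact two-sided permutation test of 7 against 7, p = 0.000583, the smallest it can give). The MetR groups differed the same way, as the plot of the cold effect by transcript length shows. Over the control diet mice with both tissues, the same index was -0.08 to 0.17 at 22 °C and -0.16 to -0.005 in the cold in inguinal white fat (iWAT), with overlap. In interscapular brown fat (iBAT) it was -0.20 to 0.07 and -0.07 to 0.13. The part of RNA or library properties in this trend was not tested. For some gene groups, though not all, the median transcript length or the value after a length trend was removed from each library is given.

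**Figure D1:**
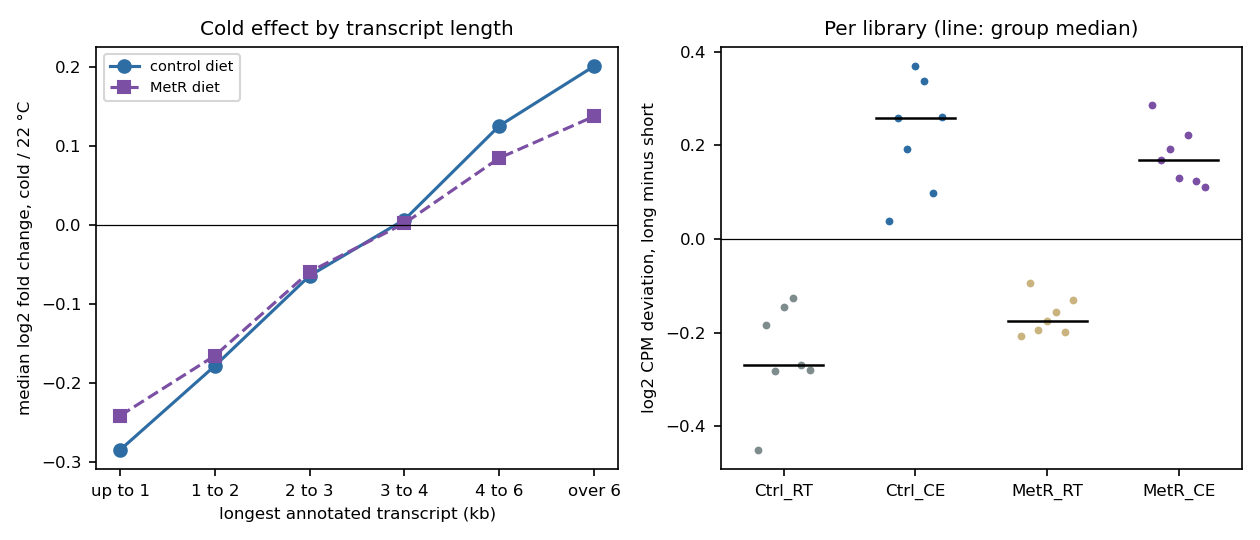
Left: median log2 fold change (cold over 22 °C) of genes in 6 classes of longest annotated transcript in kb, on the control diet (circles) and the MetR diet (squares). Right: for each of the 28 liver libraries (points; line, group median of 7), the median log2 CPM deviation of genes over 6 kb minus that of genes up to 1 kb. The medians climb from -0.28 to 0.20 on the control diet, and every library at 4 °C lies above every library at 22 °C.

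Cold changed 2639 genes in the liver on the control diet. Of all genes tested, 1612 (7.28%) rose and 1027 (4.64%) fell, and the median log2 fold change over all genes was -0.01. Enzymes of cholesterol and fatty acid synthesis, clock repressors, peroxisomal oxidation genes and genes of endothelial, stellate and Kupffer cells were among the genes that rose. ER chaperones, interferon-stimulated genes, fibrinogen chains, complement components and male-biased genes were among those that fell. For 887 genes (4.01%) every Ctrl_CE library lay above every Ctrl_RT library, and for 773 (3.49%) every one lay below. Most DEGs were expressed at low levels: 478 of the 1612 that rose were among the 8040 genes that averaged 10 CPM or more. The plot of gene lists gives the members of 17 lists, and their counts below stand beside these percentages as description. The lists were written with earlier results of these data known, so a high count is no independent test. The same limit applies to tests on summed levels of cell type genes.

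**Figure D2:**
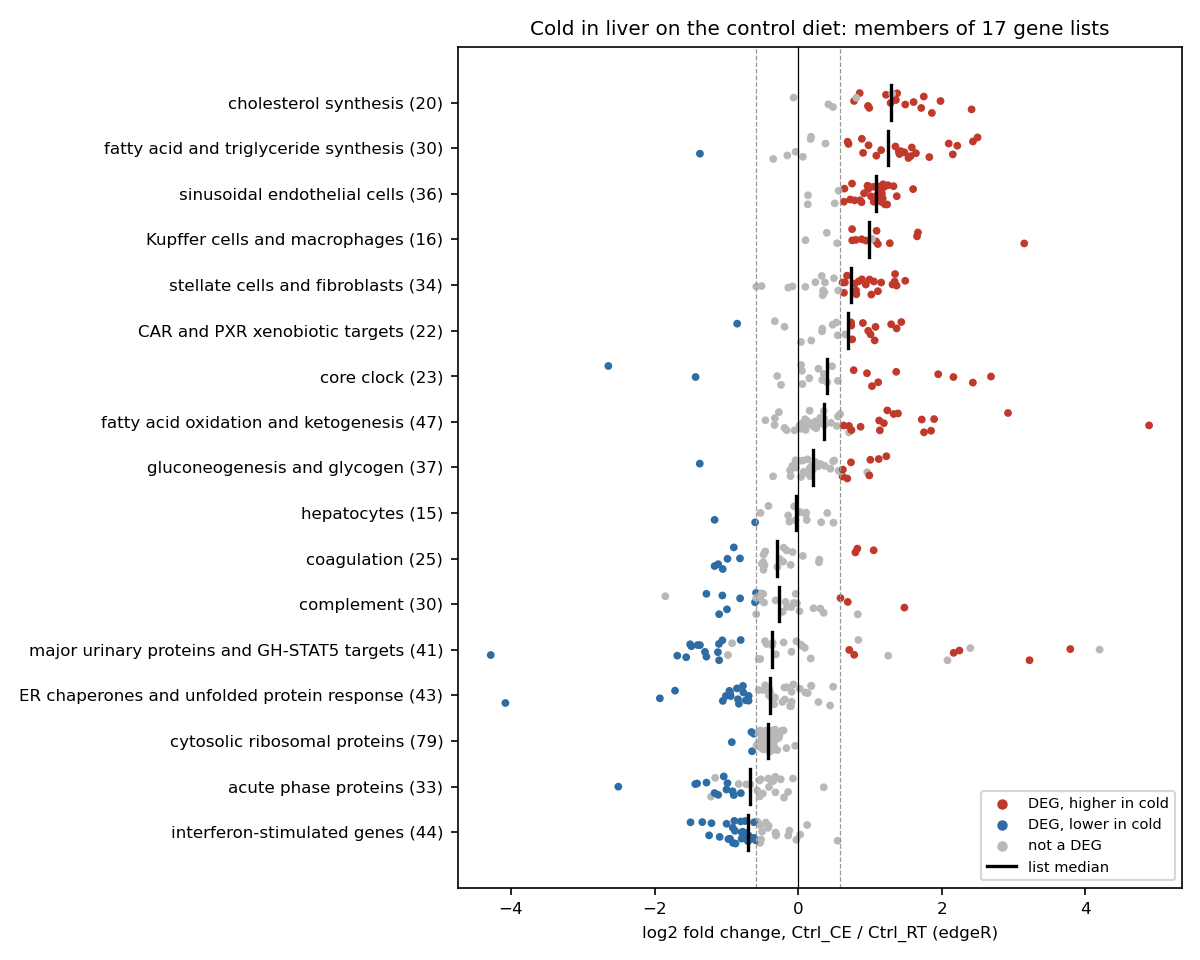
Log2 fold change of each tested member (points) of 17 gene lists, Ctrl_CE over Ctrl_RT, with the number tested in brackets, the list median (vertical bar) and the fold threshold (dashed lines). Medians run from 1.30 for cholesterol synthesis and 1.25 for fatty acid and triglyceride synthesis to -0.67 for acute phase proteins and -0.69 for interferon-stimulated genes. Red and blue mark DEGs that were higher and lower in the cold.

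Most of the cholesterol synthesis path rose. Of 20 enzymes, 15 rose and 0 fell, with a median log2 fold change of 1.30 beside -0.01 over all genes. The sterol reductase gene Hsd17b7 ranged from 26.7 to 47.6 CPM (median 31.3) in Ctrl_RT and from 71.7 to 225 CPM (median 111) in Ctrl_CE. Every cold library lay above every control library (log2 fold change 1.86 ± 0.25 (SE), adjusted p = 1.32e-06). Cyp51, which removes a methyl group from lanosterol, overlapped between the groups, at 33.5 to 139 CPM against 124 to 425 CPM (log2 fold change 1.29 ± 0.38 (SE), adjusted p = 0.0107). Nsdhl (1.71 ± 0.40), Pmvk (1.38 ± 0.29), Lss (1.36 ± 0.28) and Sc5d (0.97 ± 0.20) rose as well. Squalene epoxidase, Sqle, had medians of 47 and 112 CPM and missed the test (log2 fold change 1.31 ± 0.55 (SE), adjusted p = 0.0728). The list's lowest value was -0.06.

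Genes that sense and take up sterols were mixed. Of 24, 6 rose and 1 fell, with a median of 0.06, and 2 fell on leaving out any of Ctrl_RT replicates 5 and 6 and Ctrl_CE replicates 3, 5 and 6. Insig1, which holds SREBP in the ER, rose (log2 fold change 1.49 ± 0.26 (SE), adjusted p = 6.74e-05), as did Stard4, a sterol carrier (1.16 ± 0.16). Scarb1, the receptor through which hepatocytes take up cholesterol from HDL, ranged from 227 to 313 CPM (median 278.7) in Ctrl_RT and from 131 to 197 CPM (median 167) in Ctrl_CE. It was lower in every cold library (log2 fold change -0.78 ± 0.10 (SE), adjusted p = 9.04e-07). The factor gene Srebf2 changed by 0.38 ± 0.14 and was no DEG, and the biliary sterol exporters Abcg5 (0.10 ± 0.13) and Abcg8 (-0.15 ± 0.11) missed the test.

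The RefSeq promoter table (build GRCm38.p6, 250 bases before to 50 after each start) held 15 of the 20 cholesterol genes, and the sterol regulatory element with the letters TCACNCCAC, on either strand, was in 1 of them and in 1.44% of 27025 genes with a promoter. That gene was Hmgcs1, a synthase early in the path, named here for its promoter after its values were seen, with 63.3 to 182 CPM in Ctrl_RT and 165 to 1026 CPM in Ctrl_CE (log2 fold change 1.75 ± 0.44 (SE), adjusted p = 0.00279). Its stretch (chr13:119690168-119690267, plus strand) is shown 5′ to 3′ as the example of such a match, with the element in capitals, 137 bases before the start.
Hmgcs1: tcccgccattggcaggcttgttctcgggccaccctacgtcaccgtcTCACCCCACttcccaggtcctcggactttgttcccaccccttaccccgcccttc

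Fatty acid and triglyceride synthesis rose as well. Of 30 genes, 22 rose and 1 fell, with a median of 1.25. Among the enzymes that supply acetyl-CoA and NADPH and build the chain, 9 of 10 rose. Me1, malic enzyme, ranged from 122 to 408 CPM (median 141) in Ctrl_RT and from 382 to 1449 CPM (median 1242) in Ctrl_CE. Ctrl_RT replicate 5 was the only control library above the lowest cold library (log2 fold change 2.50 ± 0.30 (SE), adjusted p = 2.73e-07). Fatty acid synthase, Fasn, ranged from 301 to 2506 CPM (median 659.7) in Ctrl_RT and from 1659.5 to 6929 CPM (median 3297) in Ctrl_CE, with the same kind of overlap (log2 fold change 2.15 ± 0.42 (SE), adjusted p = 0.000226). Acly (1.83 ± 0.33), Acacb (1.58 ± 0.37), Acss2 (1.54 ± 0.28) and Acaca (1.16 ± 0.22) rose with them.

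The genes that lengthen, desaturate and esterify fatty acids rose too. Elovl6, which extends palmitate, ranged from 44.7 to 147 CPM (median 78.8) in Ctrl_RT and from 217 to 871 CPM (median 329.8) in Ctrl_CE and did not overlap (log2 fold change 2.43 ± 0.31 (SE), adjusted p = 9.3e-07). Scd1, the main desaturase, varied widely, at 583 to 12202 CPM in Ctrl_RT and 4466 to 20438 CPM in Ctrl_CE (log2 fold change 1.64 ± 0.46 (SE), adjusted p = 0.00691). Fads2 (1.40 ± 0.20) and Fads1 (1.09 ± 0.17), of polyunsaturated fatty acid synthesis, rose without overlap. So did Gpam, the acyltransferase that starts glycerolipid synthesis (log2 fold change 1.48 ± 0.24 (SE), adjusted p = 1.91e-05), and Lpin2, a phosphatidate phosphatase (log2 fold change 1.41 ± 0.18 (SE), adjusted p = 7.04e-07). Thrsp, a lipogenic gene under thyroid hormone and carbohydrate control, rose by 2.10 ± 0.52. Srebf1, the main SREBP gene of lipogenesis, had 206 to 1044 CPM in Ctrl_RT and 442 to 749.6 CPM in Ctrl_CE (log2 fold change 0.18 ± 0.24 (SE), adjusted p = 0.631), and Mlxipl, which encodes ChREBP, was below the fold threshold at -0.35 ± 0.07. The list's gene that fell was Elovl3 (log2 fold change -1.37 ± 0.52 (SE), adjusted p = 0.0483), which missed the test on leaving out any of 7 libraries, among them Ctrl_CE replicate 4 (-1.16 (adjusted p = 0.0763)).

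Part of the fatty acid oxidation genes rose. Of 47 genes, 16 rose and 0 fell (median 0.36). They were 10 of 14 genes of peroxisomal and omega oxidation and thioesterases, 1 of 15 of mitochondrial beta-oxidation, 0 of 6 of ketogenesis, 3 of 7 of uptake and activation, and 2 of 5 regulators. Of the 15 mitochondrial genes, 14 had a value above 0 and 8 were higher at an adjusted p under 0.05 whatever the fold (median 0.25). Ppara, the fatty acid receptor of the liver, ranged from 26.2 to 74.7 CPM (median 53.6) in Ctrl_RT and from 98.8 to 161 CPM (median 138) in Ctrl_CE. Each cold library exceeded each control library (log2 fold change 1.33 ± 0.17 (SE), adjusted p = 1.08e-06). Cpt1a, which admits fatty acids to the mitochondrion and was the DEG among the mitochondrial genes, ranged from 239 to 395 CPM (median 353) in Ctrl_RT and from 496 to 624 CPM (median 516) in Ctrl_CE, also without overlap (log2 fold change 0.71 ± 0.13 (SE), adjusted p = 0.000109). The thioesterase gene Acot4 ranged from 14.8 to 45.8 CPM (median 18.8) in Ctrl_RT and from 64.8 to 98.6 CPM (median 70.2) in Ctrl_CE, with no overlap (log2 fold change 1.72 ± 0.20 (SE), adjusted p = 2.13e-07).

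Acot3, a peroxisomal thioesterase close in sequence to its neighbours Acot4 and Acot2, was at 0 to 1.25 CPM in Ctrl_RT and 4.6 to 14.3 CPM in Ctrl_CE (log2 fold change 4.89 ± 0.66 (SE), adjusted p = 1.74e-06), and over a control group this near to 0 the value moved to 5.84 without Ctrl_RT replicate 2. Cyp4a14, an omega hydroxylase of a near-identical family, varied widely: 7.49 to 219 CPM against 39.4 to 1786 CPM (log2 fold change 2.92 ± 0.77 (SE), adjusted p = 0.00409), 2.20 (adjusted p = 0.0184) without Ctrl_CE replicate 4 and 3.56 without Ctrl_RT replicate 2. The fatty acid transporter gene Cd36 rose (log2 fold change 1.24 ± 0.17 (SE), adjusted p = 1.92e-06), and so did the coactivator gene Ppargc1a (1.13 ± 0.20). Fgf21, a fasting hormone, overlapped widely (log2 fold change 0.71 ± 0.73 (SE), adjusted p = 0.518). Of 13 genes of pyruvate dehydrogenase kinases and other fuel-switch genes, 4 rose: Pdk4 (0.98 ± 0.26), Pdk1 (1.03 ± 0.17), Pdpr (1.11 ± 0.15) and the glycerol kinase gene Gk (0.81 ± 0.11). Of 16 genes of pyruvate entry and the TCA cycle, 2 rose, Pdha1 (0.65 ± 0.07) and Dlat (0.78 ± 0.09), both subunits of pyruvate dehydrogenase, and all 16 values were above 0 (lowest 0.11, highest 0.78).

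**Figure D3:**
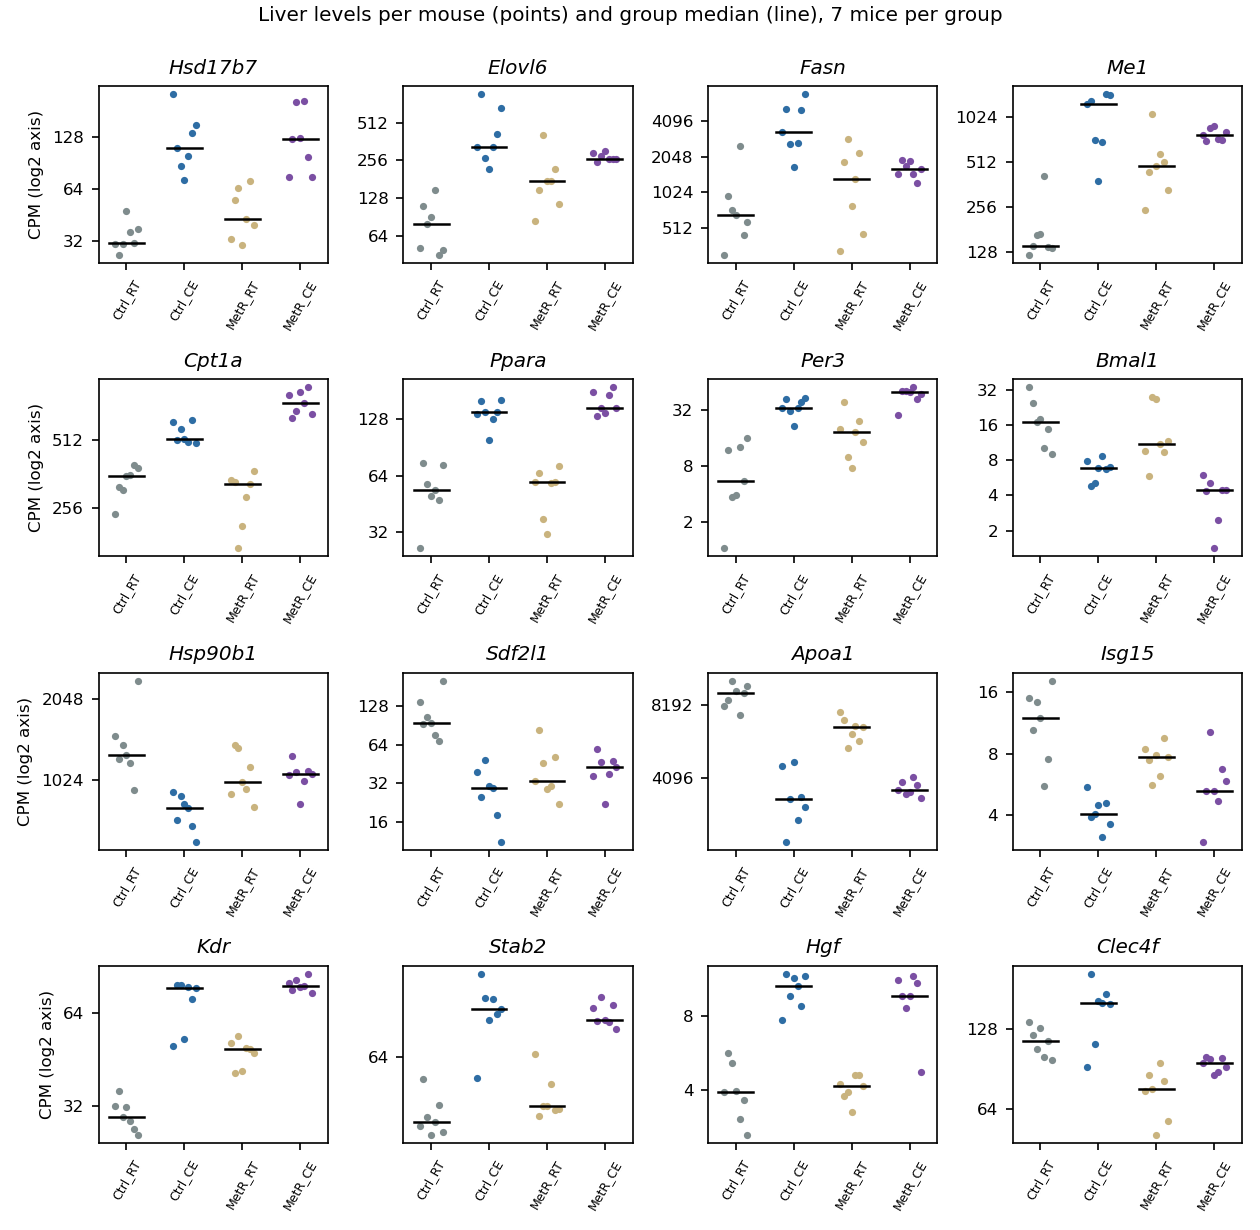
CPM (log2 axis) of 16 liver genes in each of 7 mice per group (points) with the group median (line), for both diets. Hsd17b7, Elovl6, Ppara, Kdr and Stab2 lie higher in every Ctrl_CE mouse than in every Ctrl_RT mouse, and Bmal1, Hsp90b1, Sdf2l1, Apoa1 and Isg15 lie lower. Hsp90b1 and Sdf2l1 are close in MetR_RT and MetR_CE.

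Glucose metabolism changed in fewer genes. Of 37 genes, 8 rose and 1 fell (median 0.21). Fbp1, the fructose bisphosphatase of gluconeogenesis, ranged from 981 to 1317 CPM (median 1006) in Ctrl_RT and from 1568 to 2027 CPM (median 1871) in Ctrl_CE. The groups did not overlap (log2 fold change 0.74 ± 0.08 (SE), adjusted p = 1.3e-07), nor did they for Got1, an aminotransferase (log2 fold change 1.01 ± 0.16 (SE), adjusted p = 1.21e-05). Pck1 and G6pc1, both rate-controlling enzymes of the path, missed the test (0.37 ± 0.26 and 0.45 ± 0.27). On the glycolytic side Eno1 (0.68 ± 0.10) and Pklr, the liver pyruvate kinase (1.23 ± 0.26), rose. Ppp1r3c, which targets a phosphatase to glycogen, fell (log2 fold change -1.37 ± 0.33 (SE), adjusted p = 0.00215). Tat, tyrosine aminotransferase, rose (log2 fold change 1.12 ± 0.27 (SE), adjusted p = 0.00171), with Ctrl_CE replicate 4 at 5199.6 CPM against 1393 to 2287 CPM in the other 6, and 0.78 (adjusted p = 0.00707) without it. Of 25 genes of amino acid catabolism and the urea cycle, 4 rose and 2 fell, among them Cth, of transsulfuration (0.67 ± 0.14), Agxt (-0.77 ± 0.12) and Kyat1 (-0.67 ± 0.13). Without Ctrl_RT replicate 2 the Kyat1 call was lost.

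Bile acid genes went both ways. Of 25, 5 rose and 4 fell. Cyp7b1, the oxysterol hydroxylase of the alternative path, ranged from 284.5 to 835 CPM (median 617) in Ctrl_RT and from 154 to 426 CPM (median 240) in Ctrl_CE (log2 fold change -1.12 ± 0.23 (SE), adjusted p = 0.000314). It was lower in the cold with some overlap, as were Cyp2c70, which makes muricholic acids (-0.98 ± 0.22), and the repressor gene Nr0b2, SHP (log2 fold change -0.95 ± 0.26 (SE), adjusted p = 0.00667). Cyp7a1, the rate-limiting enzyme of the classical path, spread from 2.07 to 77 CPM and from 8.01 to 205 CPM and missed the test (log2 fold change 1.16 ± 0.55 (SE), adjusted p = 0.114), with 0.52 (adjusted p = 0.489) without Ctrl_CE replicate 1. It passed without Ctrl_CE replicate 4, at 1.37 (adjusted p = 0.0471), and without Ctrl_RT replicate 5, at 1.64 (adjusted p = 0.0272). The exporters Abcc2 (0.75 ± 0.11) and Abcc4 (1.33 ± 0.19) rose without overlap, while Abcb11, the bile salt export pump, changed by -0.15 ± 0.07.

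Among apolipoproteins, Apoa1, the main protein of HDL, fell. It ranged from 7462 to 10321 CPM (median 9129) in Ctrl_RT and from 2239.7 to 4755 CPM (median 3367) in Ctrl_CE. No library overlapped, and the fall was to 38.7% of the control level (log2 fold change -1.37 ± 0.12 (SE), adjusted p = 2.48e-09). Its longest annotated transcript has 1035 bases, and with the length trend removed the value was -1.14 (adjusted p = 9.97e-08). Apob, which carries VLDL and LDL, had medians of 4892 and 4849 CPM (adjusted p = 0.998). Of 19 genes, 1 rose, Pltp (0.95 ± 0.12), and 2 fell. The other gene that fell was Angptl8, a feeding hormone (log2 fold change -1.35 ± 0.50 (SE), adjusted p = 0.0402), whose call was lost when any of 9 of the 14 libraries was left out and whose value was -1.97 without Ctrl_CE replicate 6. Without Ctrl_RT replicate 2 or 5 or Ctrl_CE replicate 3, 2 genes rose. With the length trend removed, 2 rose and 1 fell.

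Clock genes shifted by role, with rises among repressors and output factors and falls among activators: 5 of 12 repressors and 4 of 6 output factors rose, and 2 of 5 activators fell. Per3 ranged from 1.03 to 16.3 CPM (median 5.47) in Ctrl_RT and from 21.9 to 43.2 CPM (median 34.2) in Ctrl_CE. Its groups did not overlap (log2 fold change 2.16 ± 0.35 (SE), adjusted p = 2.14e-05). Wee1, a cell cycle kinase gene driven by the clock, ranged from 0.827 to 4.8 CPM (median 1.41) in Ctrl_RT and from 6.06 to 19.7 CPM (median 16.1) in Ctrl_CE, without overlap as well (log2 fold change 2.69 ± 0.35 (SE), adjusted p = 9.61e-07). Usp2 (2.43 ± 0.42), Ciart (1.95 ± 0.49, and 2.64 without Ctrl_RT replicate 5), Per2 (1.03 ± 0.26) and Tef (0.96 ± 0.24) rose. Per1 rose (log2 fold change 1.11 ± 0.36 (SE), adjusted p = 0.0177), with 0.71 (adjusted p = 0.0866) without Ctrl_CE replicate 4, which held 69.3 CPM. Bmal1, the partner of CLOCK, ranged from 8.97 to 33.4 CPM (median 16.9) in Ctrl_RT and from 4.85 to 8.73 CPM (median 6.8) in Ctrl_CE. It was lower in every cold library (log2 fold change -1.43 ± 0.31 (SE), adjusted p = 0.000667). Npas2, a CLOCK paralogue, fell by 2.64 on the log2 scale, from a median of 4.68 to 0.652 CPM (adjusted p = 0.000357). Clock (-0.24 ± 0.09), Cry1 (0.04 ± 0.19) and Nr1d1 (0.06 ± 0.21) were not DEGs. Dbp, an output factor, spread over 0.551 to 93.5 CPM in Ctrl_RT and 47.8 to 130 CPM in Ctrl_CE (log2 fold change 1.37 ± 0.47 (SE), adjusted p = 0.0265), and lost its call without Ctrl_RT replicate 3 or 4. Livers of both groups were taken within the same window of hours.

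The promoters of clock genes are shown because the clock factors act on each other through known short elements. Of the 23 clock genes, 18 had a RefSeq promoter. The E-box CACGTG, which CLOCK and BMAL1 bind, was in 3 of 7 genes that rose (Per1, Ciart and Tef) and 2 of 9 that were not DEGs, beside 8.09% of all genes. The D-box TTANGTAA, which DBP and TEF bind, was in 1 of 7 that rose (Per3), beside 2.72% of all genes. A match is a run of letters and not a measured binding site. Capitals mark the E-boxes of Per1 (chr11:69098736-69098835, plus strand) and Ciart (chr3:95882256-95882355, minus strand, 3 matches) and the 2 D-boxes of Per3 (chr4:151044794-151044893, minus strand).
Per1: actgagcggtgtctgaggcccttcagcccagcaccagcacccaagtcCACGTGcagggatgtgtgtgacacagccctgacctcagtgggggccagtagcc
Ciart: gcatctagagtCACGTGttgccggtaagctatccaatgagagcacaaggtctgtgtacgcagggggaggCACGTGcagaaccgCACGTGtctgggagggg
Per3: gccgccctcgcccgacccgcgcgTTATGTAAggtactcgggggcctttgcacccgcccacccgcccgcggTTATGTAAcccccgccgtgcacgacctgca

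ER chaperones fell. Of 20 chaperones and folding enzymes, 13 fell and 0 rose (median -0.77), and in the whole list of 43 the count was 16. Sdf2l1, a small chaperone of the ER lumen, ranged from 68.3 to 201 CPM (median 93.5) in Ctrl_RT and from 11.3 to 48.6 CPM (median 29.7) in Ctrl_CE. All cold libraries were below all control libraries (log2 fold change -1.93 ± 0.29 (SE), adjusted p = 7.33e-06). Hsp90b1, GRP94, ranged from 939.7 to 2387 CPM (median 1269) in Ctrl_RT and from 603 to 922 CPM (median 802) in Ctrl_CE, also with no overlap (log2 fold change -0.85 ± 0.15 (SE), adjusted p = 5.19e-05). Hspa5, BiP, overlapped (log2 fold change -0.76 ± 0.16 (SE), adjusted p = 0.000558). Pdia6 (-1.01 ± 0.14), Pdia4 (-0.94 ± 0.14), Pdia3 (-0.84 ± 0.12), Calr (-0.83 ± 0.13) and Dnajb11 (-0.77 ± 0.13) fell with no overlap. Derl3, of ER-associated degradation, ranged from 4.56 to 53.7 CPM (median 9.2) in Ctrl_RT and from 0.237 to 2.63 CPM (median 0.559) in Ctrl_CE (log2 fold change -4.08 ± 0.61 (SE), adjusted p = 7e-06, and -3.33 without Ctrl_RT replicate 7). Xbp1, the factor that drives many of these genes, fell (log2 fold change -0.96 ± 0.15 (SE), adjusted p = 9.83e-06). It was the DEG among 8 sensors and factors, whose median was 0.06. With the length trend removed 17 of 43 fell. The element TGACGTGG was in 0 of 36 promoters of the list and in 0.714% of all genes.

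Acute phase genes depended on Ctrl_CE replicate 4. With all libraries, 12 of 33 fell and 0 rose (median -0.67), and without that library 26 fell and 0 rose (median -1.39). The summed level of the 25 positive acute phase genes was 67388 to 132820 CPM in Ctrl_RT and 27559 to 135720 CPM in Ctrl_CE, where replicate 4 was the highest. The serum amyloid gene Saa1 was at 10995 CPM in that library, at 10.2 to 2188 CPM in the other 6 cold libraries and at 1759 to 8424 CPM in Ctrl_RT (log2 fold change -0.57 ± 0.83 (SE), adjusted p = 0.67). It missed the test without replicate 4 too, with -1.73 (adjusted p = 0.112). Saa1 shares sequence with Saa2, and their reads may be split between them. Lcn2, lipocalin 2, changed by -1.16 ± 0.75 (adjusted p = 0.268) with it and by -2.37 (adjusted p = 0.0112) without it, and Orm1, an orosomucoid, changed by -0.83 ± 0.37 (adjusted p = 0.0896) and -1.39 (adjusted p = 0.00076). The genes of all 3 fibrinogen chains passed either way. Fgb ranged from 7715 to 13960.4 CPM (median 9873) in Ctrl_RT and from 2986 to 10355 CPM (median 3331) in Ctrl_CE (log2 fold change -1.16 ± 0.20 (SE), adjusted p = 6.2e-05), and the 6 other cold libraries reached at most 4353 CPM, below every control library. Metallothionein genes, named after their values were seen, showed the same library: Mt1 was at 984 CPM in replicate 4 and at 3.67 to 62.7 CPM in the other 6, beside 13.6 to 699 CPM in Ctrl_RT.

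**Figure D4:**
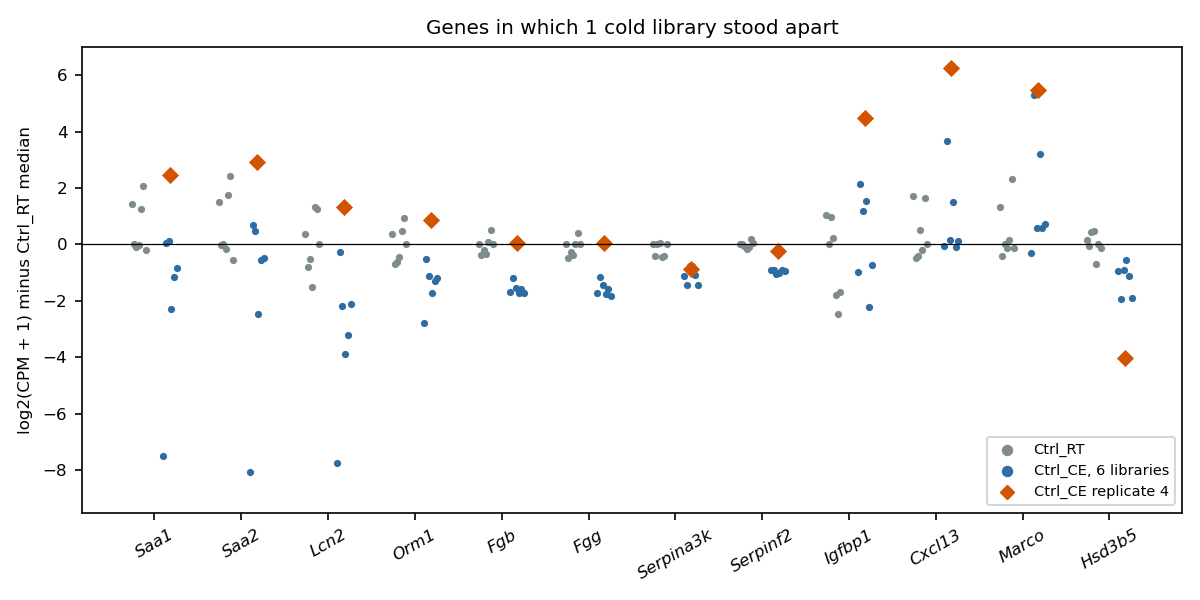
Log2(CPM + 1) minus the Ctrl_RT median of 12 genes in each Ctrl_RT library (grey), in 6 Ctrl_CE libraries (blue) and in Ctrl_CE replicate 4 (orange diamond). Replicate 4 is the highest cold library for Saa1, Saa2, Lcn2, Orm1, Fgb, Fgg, Serpinf2, Igfbp1, Cxcl13 and Marco and the lowest for Hsd3b5.

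Complement and coagulation genes fell in part. Of 30 complement genes, 7 fell and 3 rose. C8a, of the membrane attack complex, ranged from 1154 to 1623 CPM (median 1272) in Ctrl_RT and from 439 to 756 CPM (median 527) in Ctrl_CE, without overlap (log2 fold change -1.28 ± 0.16 (SE), adjusted p = 7.02e-07). C8b (-1.10 ± 0.13), C6 (-1.06 ± 0.19) and C9 (-0.99 ± 0.16) of the same complex also fell without overlap, while C3 did not pass (log2 fold change -0.02 ± 0.19 (SE), adjusted p = 0.962). The genes that rose were Cd55 (1.48 ± 0.25), Cfp (0.69 ± 0.19) and C1qc (0.59 ± 0.19), and leaving out Ctrl_CE replicate 4 left 1 of them, as did leaving out Ctrl_CE replicate 2. The C1qc call was also lost on leaving out any of Ctrl_RT replicates 3, 5, 6 and 7. Of 25 coagulation genes 6 fell and 3 rose. Serpinf2, the plasmin inhibitor, ranged from 1130 to 1441 CPM (median 1269) in Ctrl_RT and from 617 to 1093 CPM (median 672) in Ctrl_CE (log2 fold change -0.81 ± 0.09 (SE), adjusted p = 1.82e-07), with replicate 4 as the highest cold library. F11 fell (log2 fold change -1.05 ± 0.16 (SE), adjusted p = 7.61e-06). F8 (1.05 ± 0.10), Vwf (0.82 ± 0.16) and Tfpi (0.80 ± 0.13), which endothelial cells make, were those that rose. Thrombin, F2 (-0.20 ± 0.06), and antithrombin, Serpinc1 (-0.08 ± 0.05), were not DEGs.

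Male-biased genes under growth hormone control fell. Of 20, 13 fell and 0 rose (median -1.10). Selenbp2, a selenium-binding protein, had the largest fall of the genes that averaged 10 CPM or more: it ranged from 128 to 1099 CPM (median 829) in Ctrl_RT and from 4.1 to 63.8 CPM (median 36.2) in Ctrl_CE. No library overlapped (log2 fold change -4.28 ± 0.52 (SE), adjusted p = 4.01e-07). Hsd3b5 (log2 fold change -1.40 ± 0.32 (SE), adjusted p = 0.00119) was lowest in Ctrl_CE replicate 4 and gave -1.20 (adjusted p = 0.000539) without it. Mup20, a major urinary protein that shares reads with near-identical paralogues, is uncertain in size (log2 fold change -1.10 ± 0.30 (SE), adjusted p = 0.00611). Of 11 female-biased genes 9 were tested and 3 rose. Among them Cux2, a repressor of male-biased genes, had medians of 0.452 and 3.08 CPM (log2 fold change 3.22 ± 0.96 (SE), adjusted p = 0.011). On the hormone axis Ghr (0.04 ± 0.10) and Igf1 (-0.09 ± 0.10) were not DEGs, and Socs2, a STAT5 target, fell (log2 fold change -1.56 ± 0.49 (SE), adjusted p = 0.0157), a call that was lost without Ctrl_RT replicate 1. Igfbp1, a hormone-binding protein, rose (log2 fold change 2.25 ± 0.74 (SE), adjusted p = 0.0218) with 1639 CPM in Ctrl_CE replicate 4, and 0.88 (adjusted p = 0.306) without it. Without that library 3 in place of 6 genes of the 41 rose, and 13 in place of 14 fell.

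Interferon-stimulated genes fell. Of 44, 26 fell and 0 rose (median -0.69), and without Ctrl_RT replicate 7 the counts were 17 and 1 (median -0.56). Without Ctrl_CE replicate 1 or 6, 1 rose as well. With the length trend removed, 22 fell and 1 rose (median -0.62). Isg15, a ubiquitin-like modifier, ranged from 5.58 to 18.2 CPM (median 11.9) in Ctrl_RT and from 3.12 to 5.48 CPM (median 4.05) in Ctrl_CE. Each cold library was below each control library (log2 fold change -1.50 ± 0.22 (SE), adjusted p = 4.16e-06). Iigp1, a GTPase against intracellular pathogens, ranged from 269.4 to 351 CPM (median 312) in Ctrl_RT and from 142 to 247.8 CPM (median 158) in Ctrl_CE and did not overlap (log2 fold change -0.88 ± 0.12 (SE), adjusted p = 1.73e-06). Ifit1 (-0.87 ± 0.22), Oas1a (-0.89 ± 0.21), Zbp1 (-1.24 ± 0.26), Ifi47 (-1.21 ± 0.16) and Bst2 (-0.80 ± 0.09) fell. With the length trend removed, Bst2 was below the fold threshold at -0.52. By role, 19 of 25 effectors, 5 of 11 interferon gamma GTPases and 2 of 8 sensors and factors fell.

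Genes of sinusoidal endothelial cells rose. Of 36, 32 rose and 0 fell (median 1.08), and for 26 of them the groups did not overlap. Kdr, the VEGF receptor, ranged from 25.8 to 35.8 CPM (median 29.3) in Ctrl_RT and from 49.8 to 78.7 CPM (median 77) in Ctrl_CE (log2 fold change 1.21 ± 0.09 (SE), adjusted p = 2.58e-10). The scavenger receptor gene Stab2 ranged from 39 to 55.7 CPM (median 42.3) in Ctrl_RT and from 56 to 109 CPM (median 87.1) in Ctrl_CE (log2 fold change 0.97 ± 0.10 (SE), adjusted p = 5.99e-08), and Dnase1l3, a secreted nuclease, ranged from 22.5 to 33.5 CPM (median 28.8) in Ctrl_RT and from 54.2 to 76.3 CPM (median 63.2) in Ctrl_CE (log2 fold change 1.16 ± 0.08 (SE), adjusted p = 1.31e-10). All 3 were higher in every cold library, as were Cdh5 (1.33 ± 0.10), Pecam1 (1.05 ± 0.11), Stab1 (0.92 ± 0.08), Flt4 (1.37 ± 0.11), Ptprb (1.18 ± 0.09), Oit3 (1.10 ± 0.08) and Gpr182 (1.01 ± 0.08). Hspg2, perlecan of the basement membrane and a member of no list, had the smallest p of all genes tested (log2 fold change 1.43 ± 0.10 (SE), adjusted p = 1.31e-10). CPM are relative to the rest of the library. In bulk tissue, more cells of a type, more RNA per cell and less RNA from other cells cannot be told apart. This limit holds for the stellate and Kupffer cell genes too. The median transcript length of the list was 4050.5 bases, and with the length trend removed 32 rose (median 0.95). The summed level of 7 endothelial markers was 170.4 to 237 CPM in Ctrl_RT and 263.2 to 452 CPM in Ctrl_CE, with no overlap (exact two-sided permutation test, p = 0.000583).

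Stellate and Kupffer cell genes rose too. Of 34 stellate and fibroblast genes, 21 rose and 0 fell (median 0.73): 13 of 16 of quiescent cells and 8 of 18 of matrix and activation. Hgf, the hepatocyte growth factor, ranged from 2.65 to 5.66 CPM (median 3.93) in Ctrl_RT and from 7.71 to 11.8 CPM (median 10.5) in Ctrl_CE, without overlap (log2 fold change 1.35 ± 0.16 (SE), adjusted p = 2.51e-07). Lrat, which esterifies retinol, rose (log2 fold change 1.11 ± 0.26 (SE), adjusted p = 0.00171), as did Reln (1.16 ± 0.17), Colec10 (1.37 ± 0.11), Ednrb (1.31 ± 0.15) and the laminins Lama5 (0.89 ± 0.14) and Lamb1 (0.94 ± 0.14). Fibrillar collagen missed the test: Col1a1 had medians of 18 and 12.8 CPM (log2 fold change -0.08 ± 0.31 (SE), adjusted p = 0.887), and Col1a2 changed by 0.35 ± 0.21. The list's median transcript length was 4639.5 bases, and 20 rose with the length trend removed. Without Ctrl_CE replicate 6 or 7, 1 gene fell. The summed level of 6 stellate markers was 48.6 to 111 CPM in Ctrl_RT and 126 to 191 CPM in Ctrl_CE, with no overlap (exact two-sided permutation test, p = 0.000583).

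Of 16 Kupffer and macrophage genes, 12 rose and 0 fell (median 0.99), and 9 rose without Ctrl_CE replicate 4 (median 0.71). The defining Kupffer gene Clec4f ranged from 97.3 to 136 CPM (median 115) in Ctrl_RT and from 92 to 205 CPM (median 159.6) in Ctrl_CE. It overlapped and was no DEG (log2 fold change 0.40 ± 0.13 (SE), adjusted p = 0.0214). Marco, a scavenger receptor, was carried by a pair of libraries, Ctrl_CE replicates 2 and 4 at 223 and 249.5 CPM, beside a cold median of 8.36 CPM (log2 fold change 3.15 ± 0.73 (SE), adjusted p = 0.00131). The value was 2.53 (adjusted p = 0.005) without replicate 4 and 3.74 without Ctrl_RT replicate 6. Adgre1, F4/80, had 13.8 to 17.4 CPM in Ctrl_RT and 12.5 to 110.2 CPM in Ctrl_CE (log2 fold change 1.66 ± 0.31 (SE), adjusted p = 0.000116). Mertk rose with no overlap (0.94 ± 0.10). The summed level of 5 Kupffer markers was 210.3 to 278.4 CPM in Ctrl_RT and 188 to 699 CPM in Ctrl_CE (exact two-sided permutation test, p = 0.0239). Of 12 lymphocyte and neutrophil genes tested, 3 rose and 1 fell. Of these cells, 4 markers summed to 1.1 to 7.99 CPM in Ctrl_RT and 0.929 to 37.6 CPM in Ctrl_CE. The highest was Ctrl_CE replicate 4, and the next highest cold library, replicate 2, had 6.87 CPM. The log2 fold change of S100a8 was 1.23 with replicate 4 and -0.70 without it. That of S100a9 was 0.78 and -1.25, and both genes missed the test either way. Of 9 biliary genes, 2 fell, Sox9 (-1.20 ± 0.18) and Spp1 (-1.62 ± 0.34, and -0.70 without Ctrl_RT replicate 7), and Krt19 (-0.48 ± 0.34) and Krt7 (0.03 ± 0.35) missed the test, with 3 biliary markers summing to 1.24 to 3.36 and 1.66 to 2.83 CPM. Of 15 genes of hepatocytes 2 fell, Fgb and Serpina1a (-0.60 ± 0.06), an antitrypsin gene with near-identical copies, and the median was -0.04. The Serpina1a call was lost on leaving out any of 5 libraries, Ctrl_RT replicates 1, 3 and 6 and Ctrl_CE replicates 2 and 3, and without Ctrl_RT replicate 5, 1 gene rose.

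Drug metabolism genes rose in part. Of 22 targets of the receptors CAR and PXR, 11 rose and 1 fell (median 0.70), although the classical targets Cyp2b10, with at most 0.157 CPM in Ctrl_RT and 0.279 CPM in Ctrl_CE, and Cyp3a11 (log2 fold change -0.33 ± 0.38 (SE), adjusted p = 0.581) were not DEGs. The glutathione transferase genes Gstm3 (log2 fold change 1.29 ± 0.24 (SE), adjusted p = 0.000124), Gstm2 (1.08 ± 0.14) and Gstm1 (0.74 ± 0.14) rose, as did Por, the electron donor of the P450 enzymes (1.07 ± 0.18). The Gstm genes are close paralogues, so their sizes are uncertain. Of 26 zonation genes 6 rose and 1 fell: 5 pericentral genes rose, among them Cyp2a5 at 128 to 230 CPM in Ctrl_RT and 325 to 609 CPM in Ctrl_CE (log2 fold change 1.37 ± 0.14 (SE), adjusted p = 2e-08), Oat (0.78 ± 0.11) and Cyp2c29 (0.98 ± 0.19), and the periportal Etnppl rose (1.87 ± 0.22). The gene that fell, Tbx3, a Wnt target (-0.67 ± 0.24), lost its call on leaving out any of 7 libraries, Ctrl_RT replicates 4, 5 and 7 and Ctrl_CE replicates 2 to 5. The zone markers Glul (0.27 ± 0.06), Cyp2e1 (-0.21 ± 0.12), Cyp2f2 (-0.27 ± 0.12) and Cps1 (0.44 ± 0.10) were not DEGs.

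Among hormone and stress genes, the RNA-binding genes known to answer to low temperature did not pass: Rbm3 ranged from 17.6 to 31 CPM (median 24.8) in Ctrl_RT and from 22.3 to 33.6 CPM (median 30.6) in Ctrl_CE (log2 fold change 0.20 ± 0.11 (SE), adjusted p = 0.191), and Cirbp gave -0.37 ± 0.15. Of 26 cold-inducible and heat shock genes, 1 fell, Hspb1 (-1.59 ± 0.26), and 0 rose, and without Ctrl_CE replicate 4 the number that fell was 3. Without Ctrl_RT replicate 5, 1 rose. Of 20 thyroid hormone and adrenergic genes, 7 rose and 1 fell: Pde4d (1.76 ± 0.21) and Pde4b (1.03 ± 0.21), which degrade cAMP, rose, as did Arrb1 (1.08 ± 0.11), and the adrenergic receptor gene Adrb3 fell (log2 fold change -0.96 ± 0.16 (SE), adjusted p = 4.73e-05). Dio1, a thyroid hormone deiodinase, gave 0.44 ± 0.21 and missed the test. Of 20 genes of secreted regulators 5 rose and 6 fell. Lepr, the leptin receptor, rose (log2 fold change 2.59 ± 0.50 (SE), adjusted p = 0.000174), with 58.1 CPM in Ctrl_CE replicate 4, and 2.06 (adjusted p = 0.000478) without it. Serpina6, which carries corticosterone in plasma, rose (1.03 ± 0.15), and Enho (-1.62 ± 0.32), Gdf15 (-1.18 ± 0.37) and Thpo, thrombopoietin (-0.78 ± 0.09), fell. The Gdf15 call was lost without Ctrl_RT replicate 1.

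Cytosolic ribosomal protein genes shifted slightly downward. Of 79, 4 passed the fold threshold and fell, 0 rose, and the median was -0.42, while for 58 of them every cold library was below every control library. Rps27 ranged from 81.7 to 107 CPM (median 89.1) in Ctrl_RT and from 49.5 to 69.1 CPM (median 56.2) in Ctrl_CE (log2 fold change -0.65 ± 0.07 (SE), adjusted p = 2.3e-08). Their summed level was 10632 to 13046 CPM in Ctrl_RT and 8389 to 10294 CPM in Ctrl_CE, without overlap. These are short genes, with a median transcript length of 1059 bases, and with the length trend removed the median was -0.19 and 1 was a DEG. Of 34 proteasome genes 0 were DEGs in either direction with edgeR, although 19 were lower and 1 higher at an adjusted p under 0.05 whatever the fold, with a median of -0.21 and of -0.05 with the length trend removed.

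Several genes of large change belonged to no list. Malat1, a nuclear noncoding RNA, ranged from 448 to 809 CPM (median 576) in Ctrl_RT and from 176 to 282.7 CPM (median 211) in Ctrl_CE. It was lower in every cold library (log2 fold change -1.41 ± 0.12 (SE), adjusted p = 9e-10). The cell cycle inhibitor gene Cdkn1a, p21, fell from a median of 15.2 to 2.04 CPM (log2 fold change -2.88 ± 0.61 (SE), adjusted p = 0.000532). Ctrl_CE replicate 4 held 12.9 CPM against 1.25 to 2.8 CPM in the other 6, and the log2 fold change was -3.61 without it and -1.93 without Ctrl_RT replicate 1. Chka, choline kinase (-1.64 ± 0.21), and Adam11 (-2.13 ± 0.27) fell without overlap. Mfsd2a, a transporter of lysophosphatidylcholine whose highest Ctrl_RT library overlapped the lowest of Ctrl_CE, ranged from 3.59 to 20.01 CPM (median 6.63) in Ctrl_RT and from 11.5 to 96.4 CPM (median 55.6) in Ctrl_CE (log2 fold change 2.52 ± 0.42 (SE), adjusted p = 3.71e-05). Chrna4, an acetylcholine receptor subunit, rose from a median of 1.4 to 19.3 CPM (log2 fold change 3.41 ± 0.70 (SE), adjusted p = 0.000396, and 4.02 without Ctrl_RT replicate 5). Cxcl13, a chemokine, had the largest rise of the genes that averaged 10 CPM or more, but rested on Ctrl_CE replicate 4, at 116 CPM beside 0.418 to 18.3 CPM in the other 6 (log2 fold change 3.75 ± 0.99 (SE), adjusted p = 0.00422, against an adjusted p of 0.145 without it).

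To see how far the response depended on the diet, the same cold step was read in MetR mice, which share no library with the comparison above. There 608 genes (2.75%) rose and 540 (2.44%) fell. Of the genes that rose on the control diet, 364 (22.6%) were also DEGs that rose on MetR and 6 were DEGs that fell, with medians of 0.97 and 0.41. Of those that fell, 195 (18.99%) fell and 2 rose on MetR, with medians of -1.04 and -0.47. These overlaps need both thresholds to be passed on both diets. By sign alone, 87.2% of the genes that rose on the control diet were higher in the cold on MetR. Of those that fell, 86.1% were lower. The control diet medians are those of genes chosen by that contrast, so their size is not set against the MetR medians. The difference itself, the interaction of diet and temperature, was a DEG for 234 genes (1.06%), 83 with a higher and 151 with a lower cold effect on MetR, 151 of them among the cold DEGs of the control diet. The interaction shares the control diet libraries with that choice, so its direction among them is not read. The count was 401 without Ctrl_CE replicate 4, 127 without Ctrl_CE replicate 7 and 142 without Ctrl_CE replicate 2.

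Among ER genes, 10 of 43 had an interaction DEG. Sdf2l1 gave -1.93 ± 0.29 on the control diet and -0.02 ± 0.28 on MetR (interaction 1.91 ± 0.40, adjusted p = 0.0116), and its medians in MetR_RT and MetR_CE were 33.7 and 42.9 CPM. Hsp90b1 gave -0.85 ± 0.15 and -0.01 ± 0.15 (interaction 0.84 ± 0.21, adjusted p = 0.0337). Of the drug metabolism genes 7 of 22 differed, with Gstm3 at 1.29 ± 0.24 and -0.87 ± 0.23 (interaction -2.17 ± 0.33, adjusted p = 0.00159). Me1 (2.50 ± 0.30 and 0.59 ± 0.28, interaction -1.91 ± 0.40, adjusted p = 0.0116) and Elovl6 (2.43 ± 0.31 and 0.52 ± 0.30, interaction -1.91 ± 0.42, adjusted p = 0.0171) were among 4 of 30 genes of fatty acid synthesis. Cholesterol synthesis had 0 interaction DEGs of 20. For clock genes the count was 1 of 23, with Per3 at 2.16 ± 0.35 and 1.29 ± 0.33 and Bmal1 at -1.43 ± 0.31 and -1.85 ± 0.33. Ppara (1.33 ± 0.17 and 1.52 ± 0.17) and Kdr (1.21 ± 0.09 and 0.73 ± 0.09) had no interaction DEG (adjusted p = 0.753 and 0.0532). Selenbp2 (-4.28 ± 0.52 and -0.88 ± 0.49, interaction 3.40 ± 0.68, adjusted p = 0.00908) and Chrna4 (3.41 ± 0.70 and -1.35 ± 0.80, interaction -4.76 ± 1.05, adjusted p = 0.0168) differed most among the named genes of at least 10 CPM.

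The same mice gave iWAT and iBAT libraries, in which the cold effect was set against that of the liver. The cold effect in liver minus that in iWAT of the same mouse was positive for 3241 of 20928 genes (15.5%) and negative for 2949 (14.1%) at an adjusted p under 0.05, with limma on 7 and 7 mice. Against iBAT, with 6 and 7 mice, it was positive for 3230 of 20267 genes (15.9%) and negative for 2593 (12.8%). The labels of iBAT Ctrl_CE replicate 1 disagree, its title giving Ctrl_CE and its treatment tag another group. The study set aside an outlying iBAT library of Ctrl_CE, which its methods do not name. All 7 were kept here. With each of the 7 left out in turn, the counts were 2905 to 3358 positive and 2246 to 2660 negative, 3010 and 2425 without replicate 1, and each of the 8 genes compared between tissues still passed the test. The lists and genes below were chosen with earlier results of these data known. The difference holds the same liver libraries, so its direction among them is no independent result. Of the endothelial genes, 29 of 35 had a higher cold effect in liver than in iWAT and 26 of 35 than in iBAT. For macrophage genes the count against iWAT was 14 of 16, and 11 fell in iWAT at an adjusted p under 0.05. Hgf was 1.35 in liver and -0.01 in iWAT (difference 1.35 ± 0.22, adjusted p = 0.000332). The cold effect on ER genes was lower in liver than in iBAT for 27 of 43 (list median in iBAT 0.24), and Hspa5 was -0.75 in liver and 0.66 in iBAT (difference -1.42 ± 0.15, adjusted p = 6.12e-06). The effect on proteasome genes was lower in liver than in iWAT for 31 of 34, where the list median was 0.41.

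Lipid synthesis genes gave different values by depot. The median of the fatty acid list was 1.23 in liver, 0.89 in iWAT and 0.01 in iBAT. Against iWAT the list was split: of 30 genes, 6 had a higher and 7 a lower cold effect in liver. Against iBAT, 19 were higher and 2 lower. Fasn was 2.33 in liver and 1.18 in iWAT (difference 1.14 ± 0.34, adjusted p = 0.0164), and 2.63 in liver and -0.42 in iBAT (difference 3.05 ± 0.29, adjusted p = 1.75e-06). Ppara did not differ from iWAT by the test (1.38 in liver and 1.34 in iWAT (difference 0.04 ± 0.45, adjusted p = 0.966)), while in brown fat it was 1.39 in liver and -0.19 in iBAT (difference 1.58 ± 0.16, adjusted p = 3.75e-06). Per3 was 2.54 in liver and 1.26 in iWAT (difference 1.28 ± 0.37, adjusted p = 0.0159). The list medians of interferon-stimulated genes were -1.09 in iWAT and -0.54 in iBAT. Of 44, 17 had a higher and 2 a lower cold effect in liver than in iWAT, and 6 and 10 than in iBAT. Isg15 was -1.40 in liver and -1.67 in iWAT and was not among those that differed from iWAT (difference 0.27 ± 0.47, adjusted p = 0.715). The plot of list medians by diet and tissue sets these side by side.

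**Figure D5:**
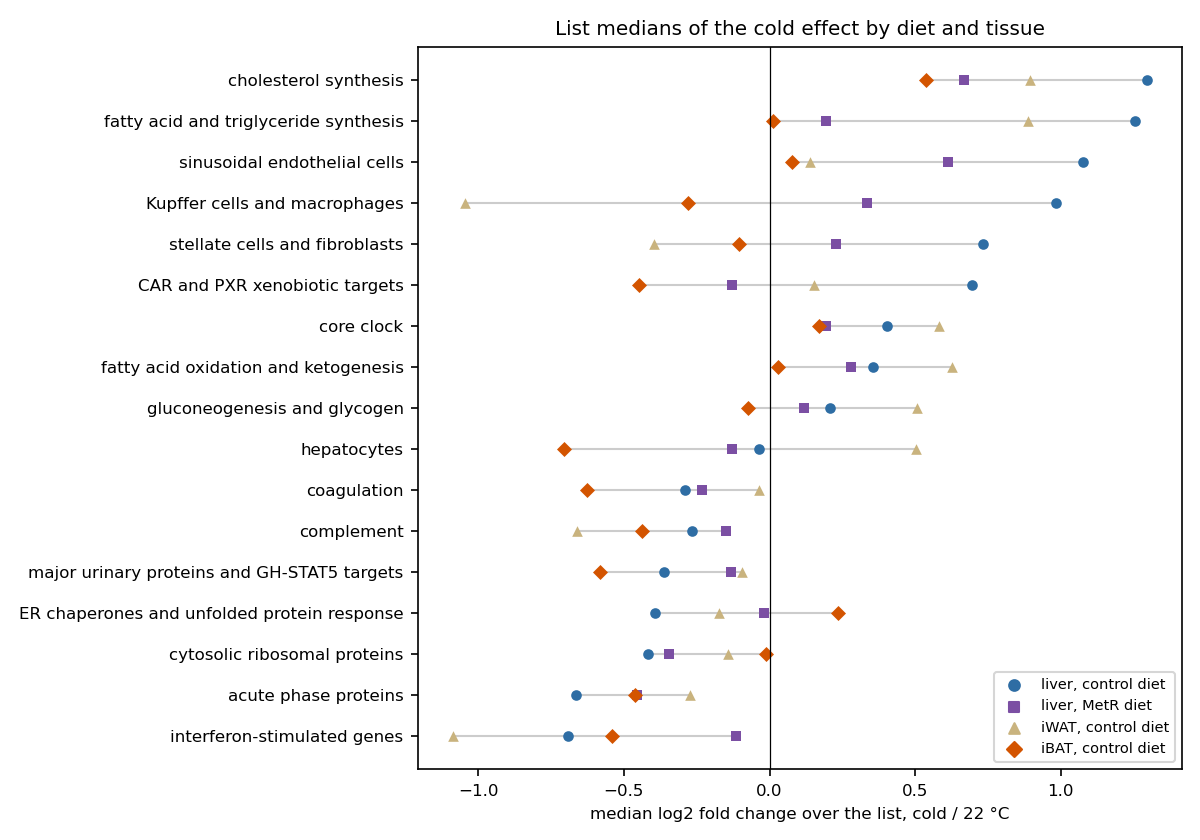
Median log2 fold change (cold over 22 °C) of 17 gene lists in liver on the control diet (circles), liver on MetR (squares), and iWAT (triangles) and iBAT (diamonds) on the control diet. Endothelial genes lie at 1.08 in control diet liver against 0.14 in iWAT and 0.08 in iBAT, and ER genes at -0.39 in liver against 0.24 in iBAT.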

How the data were processed

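RNA of liver, iWAT and iBAT was poly(A)-selected, made into NEBNext Ultra II libraries and sequenced in paired reads, per the labels. The tables the authors deposited hold raw read counts for each gene, without normalization. The submitters' processing notes name STAR 2.7.9a, featureCounts 2.0.3, Salmon 1.9.0, MultiQC 1.19, DESeq2 1.46.0 and the build mm10; the name of the deposited table refers to Salmon, whose estimates need not be whole, while its values are whole numbers, and the strand setting is not given in the sources used here, so genes that overlap on opposite strands and near-identical paralogues (Mup, Cyp4a, Cyp2a, Gstm, Saa, Serpina, Acot and Oas1 genes) are uncertain. Symbols were matched for 21235 of the 22143 tested identifiers. All count columns were mapped to a labelled sample (0 were not).

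Groups were taken from the labels. Genes with 10 counts or more over the 28 liver libraries were fitted with edgeR 4.0.16 in R 4.3.3 (TMM scaling, quasi-likelihood F-test, diet, temperature and their interaction, Benjamini-Hochberg adjustment over all tested genes), which gave the fold changes, SE and adjusted p of the text. All 4 groups share one estimate of the spread. Liver minus iWAT or iBAT was tested with limma 3.58.1 on the differences of log2 CPM (prior count 2) within a mouse, matched by the mouse identifier in the labels. Alternatives included DESeq2 1.42.0 and apeglm 1.24.0, and the scripts were checked on simulated counts. Single values per library were compared with an exact permutation test. Depth is given with the results, and precision is that of 7 mice a group.

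The members and the 31 gene lists (815 genes, 806 tested) were chosen with earlier results of these data known. Listed genes that had too few counts or were not in the table were Cyp3a41a, Sult2a1, Ly6g, Acta1, Myh1, Ckm, Cpa1, Prss2 and Umod. The text names key genes of each list, up to 5 further DEGs with the smallest p in each direction per list and role, the 15 DEGs in each direction of smallest p and of largest change among genes that averaged 10 CPM, and up to 10 DEGs of the interaction. Some genes the rule picks are not reported here. Promoters are from RefSeq for GRCm38.p6. The searched lists had a promoter for 69 of 86 genes. Coordinates are given for promoters only, since the annotation release of the tables is not settled.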

Additional observations from a re-analysis of the deposited data

Results flagged for a closer look

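Over the 83 genes whose levels were read in this way, 166 pairs of a gene and a control diet group were checked. In 9 of them, 1 library had a gap to its nearest neighbour above Dixon's 95% critical value. The gap was taken as a share of the range of the 7 on the log2(CPM + 1) scale. Chance gives about 5% of pairs, so the total of 9 is near the chance share. In 7 of the 9 the library was Ctrl_CE replicate 4. It was the highest of the cold libraries for Serpinf2 (gap of 0.823 of the range), Cdkn1a (0.711), Fgb (0.697), Iigp1 (0.682) and Tat (0.624), and the lowest for Cirbp (0.784) and Hsd3b5 (0.601). In Ctrl_RT, replicate 5 was the highest for Me1 (0.732) and the lowest for Nr0b2 (0.655). What set these libraries apart was not tested.

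The cold effect on MetR minus that on the control diet passed the interaction test for 16 of these genes (log2 values). They were Chrna4 (-4.76), Gstm3 (-2.17), Me1 (-1.91), Elovl6 (-1.91), Insig1 (-1.59), Gpam (-1.38), Cyp2a5 (-1.36), Dnase1l3 (-0.626), Selenbp2 (3.4), Derl3 (3.2), Sdf2l1 (1.91), Cyp7b1 (1.54), Isg15 (1.14), Hsp90b1 (0.839), Iigp1 (0.619) and Scarb1 (0.617). The term subtracts the control diet effect for which these genes were named, so its sign is not read.

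Between tissues of the same control diet mice, the cold effect in liver minus that in iWAT was 1.35 for Hgf, 1.28 for Per3, 1.14 for Fasn, 0.687 for Kdr and -0.562 for Hspa5 (log2 values past limma's test). In liver minus iBAT it was 3.05 for Fasn, 2.47 for Per3, 1.58 for Ppara, 1.35 for Hgf, 0.795 for Kdr, -1.39 for Isg15, -1.42 for Hspa5 and -3.39 for Sdf2l1. These genes were chosen with earlier results known, and the difference contains their liver effect, so its sign is not read.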

How the results depend on the processing

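Of the genes picked by the naming rule, 163 rose and 104 fell. Of these, 222 kept the call under every alternative other than glmTreat that tested them. As each control diet library was left out in turn, 230 kept it, and 0 of these called genes changed sign. Some named genes were not tested with filterByExpr or with the length trend removed, and a gene not tested counts here as kept. Against 2639 DEGs, 2643 were called with RLE size factors (2635 shared), 2162 with filterByExpr (2048), 2461 with no filter (2437), 2583 with robust dispersions (2564), 2294 with the compared groups alone (2226) and 2531 with DESeq2 (2442), or 2127 with apeglm shrinkage (2087). With glmTreat, which tests against the fold threshold itself, 314 rose and 151 fell, 42 and 26 on MetR, and 0 passed in the interaction, where 354 and 515 had an unadjusted p under 0.05. The interaction, counted over both directions together, gave 411 DEGs with DESeq2 (145 of them higher), beside 234. The directions were joined after their counts were seen. Apart, the 83 higher became 129 with filterByExpr, and on leaving out 1 library 39 to 151, while the 151 lower became 88 to 250, with the lowest of both without Ctrl_CE replicate 7 and the highest without Ctrl_CE replicate 4. Falls on MetR numbered 329 with apeglm and 353 with the length trend removed. Leaving out each control diet library in turn, chosen after seeing the data, gave 1456 to 1736 rises, 864 to 1054 falls, and 127 to 401 interaction DEGs (127 without Ctrl_CE replicate 7, 142 without replicate 2 and 401 without replicate 4). Removing the length trend, also chosen after seeing the data, left 2275 DEGs (1981 shared), of which 67.7% rose, against 61.1%. Counts of genes whose cold effect differed between liver and iWAT or iBAT stayed within 1.5 times under the filters and omissions tried.

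With the replicate number as a block, 2462 DEGs were called, 2393 of them shared. The numbers did not pair the mice: over 5000 genes, deviations of same-numbered Ctrl_RT and Ctrl_CE libraries correlated between -0.104 and 0.0202, and 0 of 7 libraries correlated best with their own number.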
